A study of Drosophila melanogaster with 6 samples.

Results

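The basement membrane is the thin sheet of extracellular matrix that underlies epithelia and wraps muscle, fat body and nerve. In Drosophila melanogaster 10 of its genes were chosen by name: the collagen IV genes vkg and Col4a1, the laminin genes LanA, wb, LanB1 and LanB2, the perlecan gene trol, the nidogen gene Ndg, SPARC and the papilin gene Ppn. Of these 10 genes, 9 had their current FlyBase identifier among the 17559 identifiers counted. The identifier of trol, FBgn0284408, was not among them, and trol was not analysed here; whether it was counted under an older identifier could not be settled from the tables used.

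The samples were pools of 100 whole embryos aged 20 to 22 hours after egg laying, close to hatching. The genotype of the 3 mutant pools was lola-O / Df(2R)ED2076, which combines a knockout of isoform O of the transcription factor gene lola with a deficiency. The genotype of the 3 control pools was Wild type / Df(2R)ED2076, so the deficiency was present in both groups. The comparison asked which polyadenylated transcripts differ when isoform O is missing. Total counts were 16217213 to 20518120 per mutant library and 17480430 to 22759638 per control library. The labels do not say whether the pools of a group were collected separately; p-values therefore rest on a spread between libraries that may be purely technical. The current identifier of lola was not among those counted. FBgn0005630, which is thought to be an older FlyBase identifier of lola but which no table used here pairs with a symbol, had 346.4, 364.3 and 338.5 CPM (counts scaled to a library of 1e6) in the mutant libraries and 402.3, 411.9 and 424.3 CPM in the control libraries. If the identifier is that of lola, the count sums over isoforms and does not check the genotype.

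A basement membrane is built from a laminin network at the cell surface and a collagen IV network outside it, bridged by nidogen and perlecan. In the fly embryo much of the collagen IV, laminin and papilin is made by migrating hemocytes and, later, by the fat body, and is deposited on other tissues. A laminin is a trimer of an alpha, a beta and a gamma chain; in the fly the beta chain LanB1 and the gamma chain LanB2 are shared, and the alpha chain is either LanA or wb. In whole-embryo RNA, fewer cells of a type and less RNA per cell cannot be told apart.

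The age label was checked against marker genes. The neuronal gene elav had 180.9 ± 9.21 CPM in mutants and 203.4 ± 7.58 CPM in controls (SD, n = 3 each), and the myosin gene Mhc had 7893 ± 131 CPM in mutants and 9077 ± 136 CPM in controls (SD, n = 3 each). The maternal and early genes bcd, osk and ftz averaged between 0.0329 and 0.0509 CPM in mutants and between 0 and 0.0642 CPM in controls, under the level that 3 counts in a library would give (0.132 to 0.185 CPM). Other genes of the early list were above that level: zld averaged 109.7 CPM in mutants and 125.0 CPM in controls, gcl 23.5 CPM in mutants and 27.6 CPM in controls, and eve 0.816 CPM in mutants and 1.11 CPM in controls. Of the late list Lcp3, a larval cuticle gene, lay within the range of that level in mutants (0.155 CPM) and under it in controls (0.0628 CPM).

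On a per-length scale the collagen IV transcripts were the most abundant of the 9, and those of the alpha chain gene wb the scarcest. On this scale each count was divided by the longest annotated transcript and scaled to 1e6 over all genes with a length. Col4a1 had 906.3 ± 48.4 in mutants and 995.0 ± 47.1 in controls, and vkg had 457.0 ± 22.4 in mutants and 507.3 ± 18.9 in controls (per-length level, SD, n = 3 each). SPARC, which encodes a secreted glycoprotein that binds collagen IV, came next with 421.1 ± 11.4 in mutants and 413.8 ± 5.73 in controls (SD, n = 3 each). LanB1, LanA, Ppn, Ndg and LanB2 followed in that order, with mean per-length levels of 109.2 to 143.2 in mutants, against 122.8 to 164.2 in controls. The level of wb was 2.29 ± 0.145 in mutants and 2.79 ± 0.109 in controls (SD, n = 3 each). In controls 8 of the 9 genes stood above 91.1% or more of the tested genes on this scale, whereas wb stood above 12.7%.

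**Figure D1:**
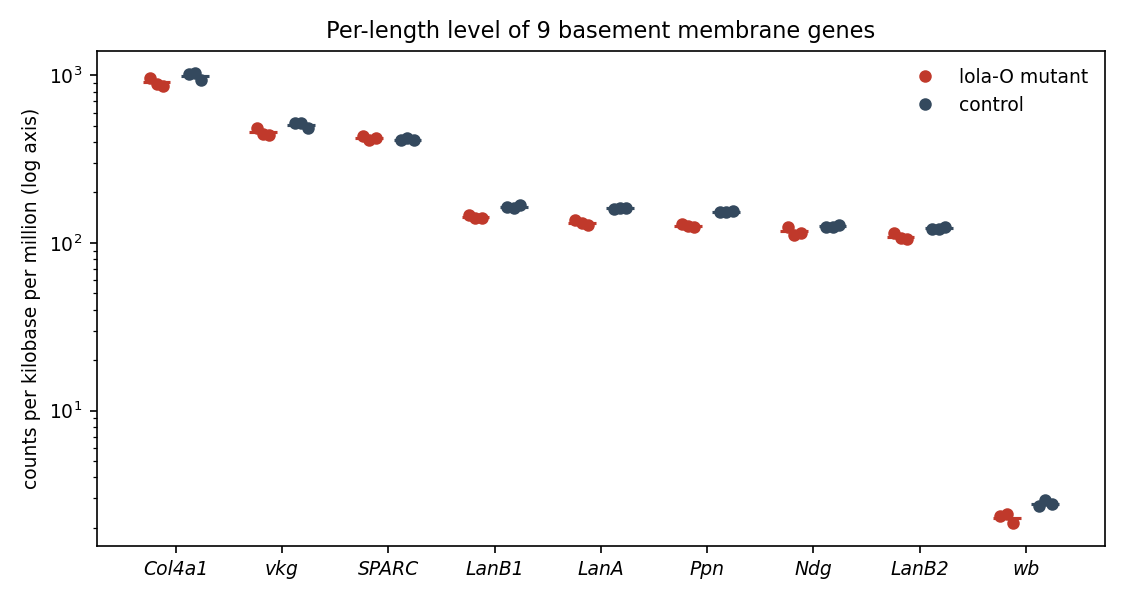
Per-length level (counts per kilobase of the longest transcript, scaled to 1e6 over genes, log axis) of the 9 counted basement membrane genes, ordered by their mean in controls. Red points are the 3 lola-O mutant libraries, dark points the 3 control libraries and lines the group means; the order of the means was the same in both groups, from Col4a1 (906.3 in mutants, 995.0 in controls) to wb (2.29 in mutants, 2.79 in controls).

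The order of the 9 mean levels was the same in mutants and controls. Within it some neighbours overlapped between libraries: in mutants LanA overlapped Ppn and Ndg overlapped LanB2, and in controls LanB1 overlapped LanA and Ndg overlapped LanB2. In each group the other neighbours did not overlap. With the union of all exons as the length, the mean level of wb was 1.93 in mutants and 2.36 in controls, and it remained the lowest.

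In mutant libraries 6 of the 9 genes were lower than in controls by edgeR, SPARC was higher, and Col4a1 and Ndg did not pass (Benjamini-Hochberg adjusted p below 0.05 over 10312 tested genes). The shifts were small, from 14.8% lower for LanA to 6.41% higher for SPARC. Over all tested genes 39.7% passed, 20.2% higher and 19.5% lower. The median log2 fold change, mutant over control, was -0.10 for the 9 genes and 0.0010 for all tested genes. With DESeq2, where 30.9% of tested genes passed (15.8% higher and 15.1% lower), 5 of the 9 were lower and 1 higher. With limma-voom, where 39.2% passed (20.2% higher and 19.0% lower), 7 were lower and 1 higher. Without control 3, whose collagen values were low, 7 were lower and none higher by edgeR, in a fit where 3872 of 10442 tested genes passed. Summed over the 9 genes, the libraries held 8075 to 8482 CPM in mutants and 8448 to 9141 CPM in controls, of which the collagen IV genes gave 58.6% to 61.8%. None of the 7 edgeR calls remained with a correction for transcript length.

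Among the laminin genes the alpha chains had the lowest log2 fold changes. Positions are those of build BDGP6.54. LanA (FBgn0002526, 3L:6203831-6218022, minus strand), the main alpha chain gene of these embryos by level, had 934.0, 915.0 and 899.8 CPM in mutants 1 to 3 and 1071, 1094 and 1060 CPM in controls 1 to 3. Every mutant library lay below every control library. The log2 fold change was -0.23 (SE 0.026, edgeR adjusted p = 1.58e-11).

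The other alpha chain gene, wb (FBgn0261563, 2L:14263027-14328262, plus strand), rested on 260 to 305 counts in mutants and 311 to 433 in controls. It had 15.5, 16.3 and 14.6 CPM in mutants 1 to 3 and 17.5, 19.1 and 17.5 CPM in controls 1 to 3, without overlap. Its log2 fold change was -0.23, with a wider error than that of LanA (SE 0.076, edgeR adjusted p = 0.0124). The call was lost with DESeq2 (adjusted p = 0.0635), without mutant 3 (edgeR adjusted p = 0.0978) and without control 2 (0.103).

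The shared chains were lower by a smaller fold; the difference between chains was not tested. LanB1 (FBgn0261800, 2L:7811438-7820771, plus strand), the beta chain gene, had 538.8, 527.6 and 528.8 CPM in mutants 1 to 3 and 583.8, 582.0 and 583.0 CPM in controls 1 to 3, with all mutants lower. The log2 fold change was -0.13 (SE 0.027, edgeR adjusted p = 3.13e-05). LanB2 (FBgn0267348, 3L:9614914-9623980, plus strand), the gamma chain gene, had 393.0, 374.4 and 375.5 CPM in mutants 1 to 3 and 407.7, 413.0 and 407.5 CPM in controls 1 to 3, again with all mutants lower. Its fold change on that scale was -0.10, with SE 0.028 (edgeR adjusted p = 0.00192). LanA, LanB1, LanB2 and the papilin gene Ppn passed in all 6 fits with 1 library left out.

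The collagen IV genes lie head to head on 2L, with 1417 bases between their annotated starts. In vkg (FBgn0016075, 2L:5012144-5028191, minus strand) the libraries had 1813, 1727 and 1709 CPM in mutants 1 to 3 and 1901, 1931 and 1743 CPM in controls 1 to 3. Control 3 fell within the range of the mutants. The log2 fold change was -0.087 (SE 0.030, edgeR adjusted p = 0.0205). The call was lost without mutant 2, mutant 3, control 1 or control 2 (edgeR adjusted p = 0.121, 0.146, 0.0952 and 0.183).

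In Col4a1 (FBgn0000299, 2L:5029609-5037279, plus strand) the libraries had 3425, 3253 and 3197 CPM in mutants 1 to 3 and 3538, 3633 and 3206 CPM in controls 1 to 3. Control 3 was again low and overlapped the mutants. The log2 fold change of -0.072 (SE 0.050) did not pass edgeR (adjusted p = 0.314). Without control 3 it was -0.12 and passed (edgeR adjusted p = 2.12e-06), whereas without control 2 it was -0.031 (0.517) and without mutant 3 it was -0.048 (0.506).

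Both collagen genes varied more between libraries of a group than their counts alone allow. The coefficient of variation over the 3 controls was 6.48% for Col4a1 and 5.44% for vkg, against a counting error of at most 0.602% in any library. Over the same controls LanB1 varied by 0.156%, under its counting error of 0.87% to 1.09%, and Ppn by 1.00%. LanB2, Ndg, LanA and SPARC varied by 0.767%, 1.22%, 1.59% and 3.02%. The scarce gene wb varied by 5.2%, within its counting error (4.81% to 6.2%). In mutants Ndg (counting error at most 1.39%) varied by 3.86% and wb by 5.53%, more than Col4a1 (3.61%) or vkg (3.18%). The rest varied by 0.57% to 2.73% in mutants. Variation beyond counting was thus not limited to the collagen genes. Control 3 was the lowest control for both collagen genes and also for LanA, SPARC, Ppn and, by a small margin, LanB2. For LanB1 and Ndg it lay between the other controls.

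**Figure D2:**
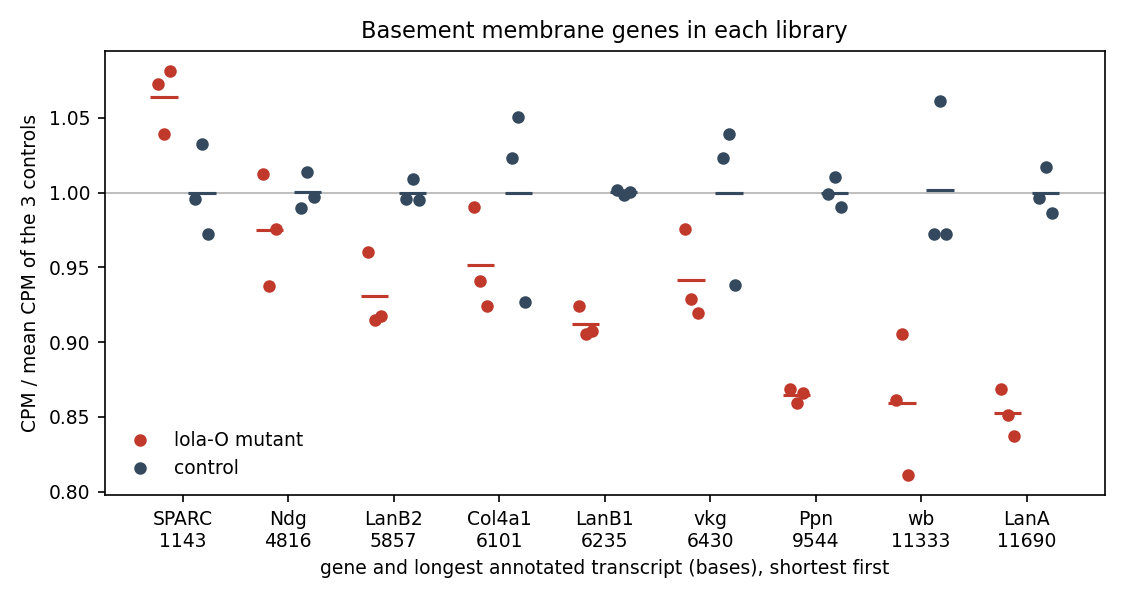
CPM of each library divided by the mean of the 3 controls, for the 9 counted genes ordered by the length of the longest annotated transcript (bases, under each name). Red points are lola-O mutants, dark points controls, lines group means; mutants lay above the controls for SPARC, the shortest, and furthest below them for Ppn, wb and LanA, the longest.

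The remaining genes encode proteins associated with these networks. SPARC (FBgn0026562, 3R:26869238-26871995, minus strand) had 288.9, 279.9 and 291.3 CPM in mutants 1 to 3 and 268.2, 278.1 and 261.9 CPM in controls 1 to 3, with every mutant higher. The log2 fold change was 0.090 (SE 0.030, edgeR adjusted p = 0.0129). The call was lost without mutant 3, control 1 or control 3 (edgeR adjusted p = 0.0661, 0.0558 and 0.0572).

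Ppn (FBgn0003137, 3R:28520665-28540324, minus strand), which encodes the proteoglycan-like protein papilin, had 724.7, 716.7 and 722.4 CPM in mutants 1 to 3 and 833.0, 842.8 and 826.1 CPM in controls 1 to 3. All mutants were lower, and the log2 fold change was -0.21, with SE 0.026 (edgeR adjusted p = 3.66e-10). Ndg (FBgn0026403, 2R:10313891-10322104, plus strand), which encodes nidogen, had 348.8, 322.9 and 336.1 CPM in mutants 1 to 3 and 341.0, 349.2 and 343.4 CPM in controls 1 to 3, and the groups overlapped. Its log2 fold change of -0.036 (SE 0.029) did not pass edgeR (adjusted p = 0.355), and the approximate 95% interval ran from -0.093 to 0.022. The value depended on single libraries, at -0.064 without mutant 1, -0.0075 without mutant 2 and -0.022 without control 2, and did not pass in any of these fits.

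Among the 9 genes Ndg is the nearest to lola, 0.160 Mb away. Of the 9 genes 5 lie on the second chromosome, as lola does. The exons of Ndg share 158 bases with CG34222 on the opposite strand, which held 3 counts over all 6 libraries. No exon of the other 8 counted genes overlapped an exon of another annotated gene.

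Without overlap between the groups, 5 of the 9 genes were lower and 1 was higher in mutants. Over all tested genes the groups did not overlap for 23.7%, with mutants lower, and for 24.1%, with mutants higher.

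The size of these shifts followed the length of the transcripts. Against the length of the longest annotated transcript, Spearman's rho of the log2 fold change was -0.92 over the 9 genes and -0.31 over 10110 tested genes with a length. Genes share the same 6 libraries, so no p is given. The longest transcripts were those of LanA (11690 bases), wb (11333) and Ppn (9544), which had the lowest fold changes, and the shortest was that of SPARC (1143 bases), the gene that was higher. Of the 9 genes, 7 fell in the tenth of tested genes with the longest transcripts (5347 to 71382 bases), where 615 of 1011 genes were lower and 37 were higher.

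**Figure D3:**
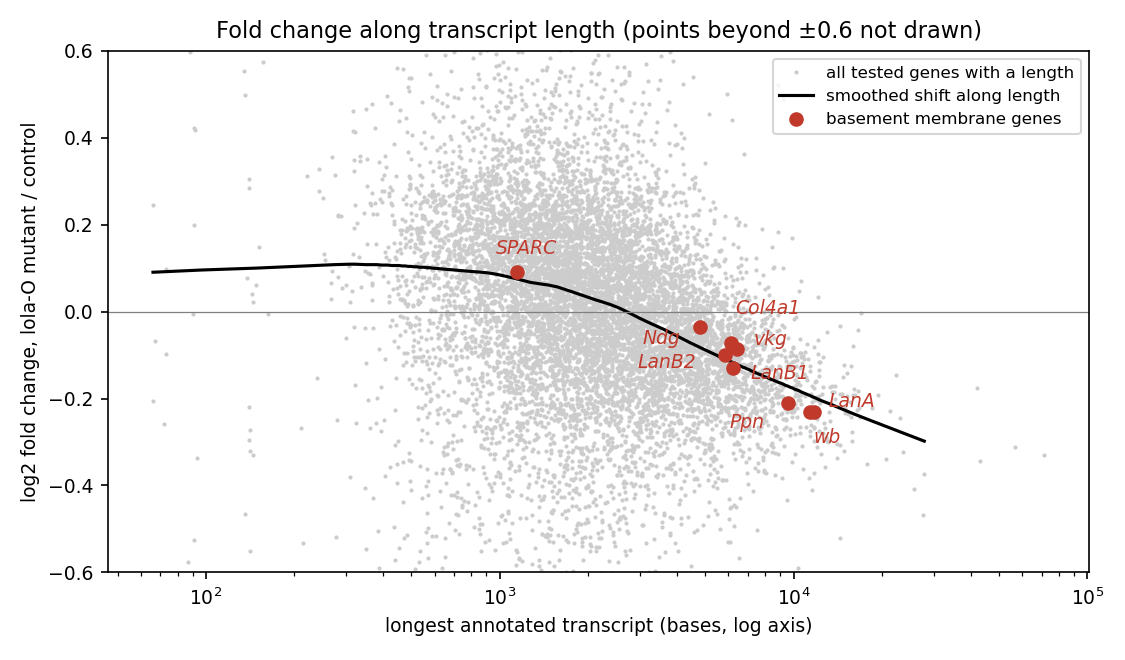
Log2 fold change (lola-O mutant over control) against the longest annotated transcript (bases, log axis) for tested genes in grey and the 9 basement membrane genes in red, with the smoothed shift along length as a line. The 9 genes lay within 0.047 of the line, and vertical values beyond the axis range are not drawn.

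A smooth curve of the shift along length, computed over all tested genes, was compared with each gene. The shift at the length of LanA was -0.20 on the log2 scale, against its fitted -0.23. At the length of vkg it was -0.12, against -0.087, and at the length of SPARC it was 0.075, against 0.090. Over the 9 genes the gap between fitted value and curve was 0.0058 to 0.047.

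With each library's curve removed, none of the 9 genes passed edgeR, and none had an unadjusted p below 0.05. The smallest unadjusted p was 0.0975, for Ndg (adjusted p = 0.208). In that fit 31.6% of all tested genes still passed, 16.7% higher and 14.9% lower. The median log2 fold change of the 9 genes was 0.0060, and their median absolute value was 0.034, against 0.12 over all tested genes. These absolute values come from sets of unlike level, since all of the 9 but wb stood above 91.1% or more of tested genes. The corrected SE was widest for the scarce gene wb (0.076, against 0.025 for LanA). Error did not follow level alone, since the most abundant genes, Col4a1 and vkg, had the next widest (0.064 and 0.042). The medians thus do not compare like with like. The corrected log2 fold change was -0.033 for LanA (approximate 95% interval -0.082 to 0.015), -0.015 for LanB1 (-0.065 to 0.035), 0.0060 for LanB2 (-0.047 to 0.059) and -0.038 for Ppn (-0.087 to 0.011). For the collagen genes it was 0.034 for vkg (-0.048 to 0.12) and 0.043 for Col4a1 (-0.082 to 0.17), and it was 0.015 for SPARC (-0.041 to 0.070) and 0.048 for Ndg (-0.0081 to 0.10). The interval was widest for wb, at -0.034 (-0.18 to 0.11). These intervals hold the curve as known. The correction treats the whole shift along length as shared by all genes, and its source was not tested.

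**Figure D4:**
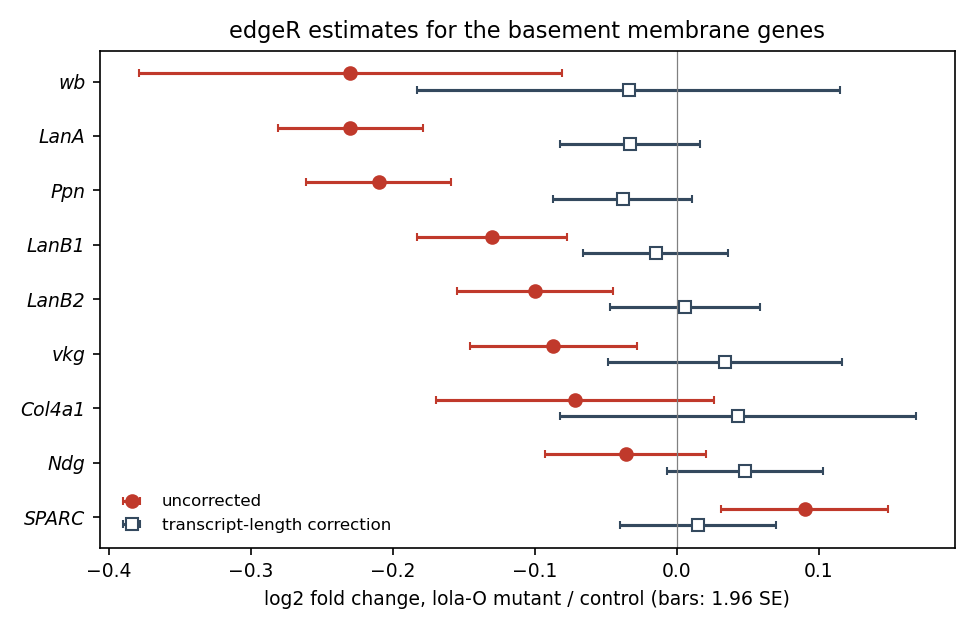
edgeR log2 fold changes (lola-O mutant over control) of the 9 genes, uncorrected (red circles) and with the transcript-length correction (open squares); bars are approximate 95% intervals. Uncorrected values ran from -0.23 to 0.090, and corrected values from -0.038 to 0.048, all with intervals that include 0.

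Ratios between partner genes within a library, which need no scaling between libraries, were compared next. The per-length ratio of vkg to Col4a1 was 0.502, 0.504 and 0.507 in the mutant libraries, against 0.510, 0.504 and 0.516 in the control libraries. The groups overlapped, with a difference of -0.016 on the log2 scale (exact 2-sided permutation p = 0.20; with 3 against 3 samples the smallest possible p is 0.10).

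The ratio of LanB1 to LanB2 was 1.29, 1.32 and 1.32 in the mutant libraries, against 1.35, 1.32 and 1.34 in the control libraries. Before rounding, the log2 ratio was lower in every mutant than in every control, by 0.028 on average (difference -0.028, exact permutation p = 0.10). With the correction the difference was -0.020 (exact permutation p = 0.30), and without mutant 1 the uncorrected one was -0.016. For the alternative alpha chains the ratio of wb to LanA was 0.0171, 0.0184 and 0.0167 in the mutant libraries, against 0.0168, 0.0180 and 0.0170 in the control libraries. The groups overlapped, with a log2 difference of 0.0097 (exact permutation p = 0.70).

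SPARC differs most in length from its partner. Its per-length ratio to Col4a1 was 0.450, 0.459 and 0.486 in the mutant libraries, against 0.405, 0.409 and 0.436 in the control libraries. All mutants were higher, with a log2 difference of 0.16 (exact permutation p = 0.10). With the transcript-length correction the difference was -0.030 (exact permutation p = 0.70). Adjusted over the 4 ratios, the uncorrected p-values were 0.267, 0.20, 0.70 and 0.20 in the order given (exact permutation tests).

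Genes that make, secrete, crosslink, remodel or bind the basement membrane were read from the same fit, in 4 lists. Of 47 genes named, 43 were counted and 40 tested, of which 7 were higher, 20 lower and 13 did not pass. Over all tested genes 20.2% were higher and 19.5% lower. With the transcript-length correction 9 were higher and 11 lower, against 16.7% and 14.9% of all genes tested in that fit.

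Genes of collagen IV biosynthesis and secretion moved in both directions, and the 6 that rose did so with the correction as well. Of 13 tested, 6 were higher and 3 lower (median log2 fold change 0.098), and 7 and 2 with the correction (median 0.11). Sec31, an outer coat subunit of COPII vesicles, which carry collagen from the endoplasmic reticulum, had 111.6 ± 3.83 CPM in mutants and 93.7 ± 4.07 CPM in controls (SD, n = 3 each). Its log2 fold change was 0.25 (SE 0.038, edgeR adjusted p = 6.96e-08) and 0.31 with the correction (9.26e-12). Sec13, its partner in the coat, rose by 0.26 (edgeR adjusted p = 1.17e-07) and by 0.22 with the correction (3.58e-06). Sar1, the GTPase that starts coat assembly, rose by 0.19 (7.20e-07) and by 0.15 with the correction (3.81e-05).

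PH4alphaEFB, a prolyl hydroxylase that modifies collagen IV, had 23.2 ± 0.780 CPM in mutants and 20.0 ± 1.12 CPM in controls (SD, n = 3 each). It rose by 0.20 (edgeR adjusted p = 0.0111) and by 0.18 with the correction (0.0284), but did not pass DESeq2 (adjusted p = 0.0547). The PH4alphaEFB call was also lost without control 3 (edgeR adjusted p = 0.0656). Ehbp1, an adaptor of Rab-driven membrane traffic, went the other way at -0.28 (edgeR adjusted p = 1.96e-09) and -0.21 with the correction (7.62e-07).

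Crosslinking and remodelling genes were lower where they passed. Of 7 tested, 4 were lower and none higher (median -0.11), and 3 were lower with the correction (median -0.055). Timp, which encodes the inhibitor of matrix metalloproteinases, had 10.9 ± 0.712 CPM in mutants and 14.4 ± 1.33 CPM in controls (SD, n = 3 each). It fell by 0.41 on the log2 scale (log2 fold change -0.41, edgeR adjusted p = 1.06e-04) and stood at -0.47 with the correction (1.06e-05). The metalloproteinase gene Mmp1 had -0.19 (edgeR adjusted p = 4.69e-04) and -0.14 with the correction (0.0126), whereas Mmp2 had -0.062 and did not pass (0.454). Loxl2, a lysyl oxidase gene with 0.731 ± 0.254 CPM in mutants and 1.38 ± 0.123 CPM in controls (SD, n = 3 each), had -0.86 (edgeR adjusted p = 0.0187); it did not pass DESeq2 (adjusted p = 0.0683) and passed in 4 of the 6 fits with 1 library left out. Peroxidasin, the enzyme that crosslinks collagen IV, is encoded by Pxn, which had -0.095 (edgeR adjusted p = 0.0297) and -0.00097 with the correction (0.988). The Pxn call was also lost with DESeq2 (adjusted p = 0.0862), without mutant 1 or 2 and without control 2 or 3.

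Receptors that bind the matrix were lower in 7 of 10 tested genes, and none were higher (median -0.15). Their median transcript length was 4742 bases, against 2001 bases over tested genes. With the correction 2 were lower and 1 higher (median -0.011). Dg, the laminin receptor dystroglycan, had 179.8 ± 7.52 CPM in mutants and 202.7 ± 5.87 CPM in controls (SD, n = 3 each), which passed at -0.17 (edgeR adjusted p = 1.12e-05) but not with the correction (-0.049, adjusted p = 0.233). Dys, the dystrophin gene, had -0.18 and Lar, a receptor phosphatase gene, -0.15, and neither passed with the correction (0.030 and 0.0079). The glypican gene dally had -0.18 and kept its call at -0.10 (edgeR adjusted p = 0.0160). Of the integrin genes, the beta subunit gene mys had 0.0026 (edgeR adjusted p = 0.957) and 0.073 with the correction (0.0474). The alpha subunit gene if had -0.14 (edgeR adjusted p = 1.48e-04) and -0.030 with the correction (0.467). The alpha subunit gene mew had -0.068 and did not pass (0.156).

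Other matrix proteins were lower in 6 of 10 tested genes and higher in 1 (median -0.12), and 4 were lower and 1 higher with the correction (median -0.037). Tenectin, a secreted integrin ligand encoded by tnc, had 75.9 ± 2.06 CPM in mutants and 114.6 ± 4.22 CPM in controls (SD, n = 3 each). It passed at -0.59 on the log2 scale (edgeR adjusted p = 1.25e-21) and at -0.41 with the correction (5.80e-16). The M-spondin gene mspo rose by 0.46 (edgeR adjusted p = 2.20e-10) and by 0.48 with the correction (9.56e-12). The integrin ligand gene Tig had -0.21 and the heart matrix gene prc -0.18, and with the correction -0.080 and -0.083, both still below the threshold (edgeR adjusted p = 0.0180 and 0.0154).

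**Figure D5:**
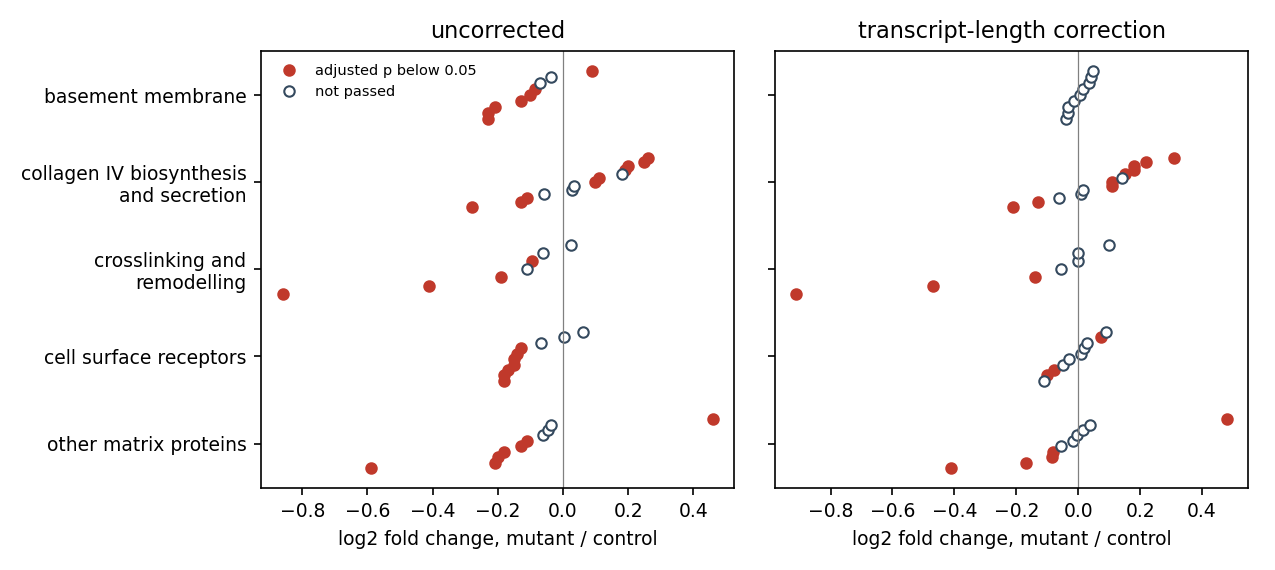
Log2 fold changes (lola-O mutant over control) of the tested genes of 5 lists, uncorrected on the left and with the transcript-length correction on the right; filled points passed edgeR at adjusted p below 0.05. The 9 basement membrane genes closed up around 0 on the right, with none passing, while genes such as Sec31 (0.31), mspo (0.48), Timp (-0.47) and tnc (-0.41) kept their calls.

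Markers of cell types known to make the matrix moved in both directions. For 14 hemocyte markers, which include Ppn and Pxn, the summed CPM ranged from 1219 to 1229 in mutants and from 1383 to 1405 in controls. Ppn, itself one of the 9 genes, gave 58.8% to 60.0% of that sum, and without it the sum ranged from 502.3 to 503.8 CPM in mutants and from 555.7 to 562.1 CPM in controls. Of 13 tested hemocyte markers 7 were lower, 5 did not pass and the scavenger receptor gene crq was higher (log2 fold change 0.18, edgeR adjusted p = 5.92e-04). With the correction 4 were lower and 1 higher. Over all tested genes, the background for each marker list here, 19.5% were lower and 20.2% higher. With the correction these shares were 14.9% and 16.7%. The tested hemocyte markers had a median transcript length of 4459 bases, against 2001 bases over tested genes. The phagocytic receptor gene NimC1 had -0.69 (edgeR adjusted p = 1.24e-09) and -0.68 with the correction, Pvr, a growth factor receptor gene, -0.22 and -0.11 with the correction, and the hemolectin gene Hml -0.27 (adjusted p = 3.31e-09), which did not pass with the correction at -0.067 (0.133). For 11 counted fat body markers the summed CPM ranged from 4043 to 4210 in mutants and from 4515 to 4563 in controls, with 3 of 6 tested lower and 2 higher, and 1 lower and 3 higher with the correction (median log2 fold change 0.046). The lipoprotein gene apolpp gave 82.8% to 83.9% of that sum, and without it the sum ranged from 662.3 to 678.2 CPM in mutants and from 756.9 to 783.2 CPM in controls. The lipid droplet gene Lsd-1 had -0.45 and -0.49 with the correction, while apolpp had -0.14 and was higher with the correction (0.057, edgeR adjusted p = 0.0411) and Apoltp had -0.25 and turned to -0.039 (adjusted p = 0.284). The larval serum protein gene Lsp1gamma was higher at a low level, with 0.982 ± 0.254 CPM in mutants and 0.256 ± 0.0277 CPM in controls (SD, n = 3 each). Another 5 fat body markers fell below the filter, among them Lsp2 and Fbp1, with at most 0.0843 CPM in mutants and 0.0797 CPM in controls on average. No hemocyte or fat body marker was at 0 in all libraries. For 10 counted muscle markers the summed CPM ranged from 31431 to 31933 in mutants and from 35163 to 35389 in controls, with 5 of 10 lower and 1 higher, and 6 lower and 1 higher with the correction. The part of these cell types in the values of the basement membrane genes was not tested.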

How the data were processed

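The authors deposited 6 tables, 1 per polyA RNA sample, of whole-number read counts per FlyBase gene. The tools named are bedtools 2.25.0, SAMtools 1.3.1, Subread 1.5.1 and STAR 2.5.2b, with build BDGP6, per the submitters' processing notes. What each tool did, the strand setting and the gene models counted: not given in the sources used here. Libraries were made with a kit that marks strand, per the labels. Samples were grouped by title; the protocol text speaks of mutant embryos in every sample, and the titles and genotypes decided. Symbols, positions and lengths came from Ensembl release 115 (BDGP6.54), which matched 17253 of 17559 identifiers; the other 306 held 4.37% to 4.49% of counts.

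Counts were tested with edgeR 4.0.16 (R 4.3.3): TMM, filterByExpr (10312 genes kept), robust quasi-likelihood fits, Benjamini-Hochberg adjustment over all tested genes, 2-sided, threshold 0.05. SE is |log2 fold change| over the root of the F statistic; intervals are normal 95% intervals from it. CPM are TMM-scaled. The transcript-length correction took, per library, a lowess curve (span 0.3) of log2 CPM (prior count 2) minus its mean over libraries against log2 longest transcript, and used it as an offset, over 10110 genes with a length. Replicates differed by more than counting noise (chi-square per degree of freedom 1.94 to 6.14). Each library counted once, although this spread does not show that the pools were collected separately. DESeq2 1.42.0, limma-voom (limma 3.58.1) and other settings were tried; see the closing section for their effect.

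The members, lists, tests and the length correction were chosen with earlier results of these data known. Named were all 9 counted members, PH4alphaEFB, Pxn, Mmp1, Mmp2, mys, mew, if, Dg, FBgn0005630, and at most 4 called genes of each other list, taken by adjusted p; others, and the marker sums without their most abundant gene, were chosen after values were seen. Of the age marker lists, 4 of 7 tested late markers were lower: Cpr67B (log2 fold change -0.70), Mhc (-0.20), brp (-0.16) and elav (-0.17). Of 3 tested early markers 2 were lower, zld (-0.19) and gcl (-0.24), and none of either list were higher. Over all tested genes 19.5% were lower, and 14.9% with the correction. With the correction Cpr67B, Mhc and gcl kept their calls, while brp, elav and zld lost theirs. The late cuticle genes Ccp84Ab, Ccp84Ad and Cpr65Av did not pass in either fit. The muscle genes named by the rule were bt (-0.47), sls (-0.31), Mhc and Mef2 (-0.20). Exon overlaps were computed for the 10 members only.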

Additional observations from a re-analysis of the deposited data

How the results depend on the processing

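RLE and upper-quartile scaling and a filter of 5 CPM in 3 samples left the same 7 basement membrane genes called, 6 lower and 1 higher, and the median of all tested genes stayed within 0.0059 of 0 on the log2 scale. Over all tested genes, 4098 and 4063 of 10312 passed with these scalings and 3875 of 8293 with the filter, in either direction. Leaving out the 20 most abundant genes removed Col4a1 from the test and left the same 7 calls, while 4085 of 10292 tested genes passed. With no low-count filter, limma-voom or the replicate block, Col4a1 was also lower (adjusted p = 0.0124, 0.0403 and 0.0213), giving 7 lower. In these fits 4064 of 14258, 4043 of 10312 and 4077 of 10312 tested genes passed. DESeq2, where 3184 of 10312 passed, lost wb, giving 5 lower. With a sample left out, 4 to 7 genes were lower and 0 to 1 higher; the median log2 fold change was -0.13 to -0.090, and -0.13 without control 3.

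The transcript-length correction, with and without the replicate block, gave 0 higher and 0 lower of the 9 genes by edgeR. Of 10110 tested genes, 3264 passed with the block and 3197 without it. The median turned to 0.0060, and to 0.0058 with the block. Turned in sign were vkg (0.034; 0.036 with the block), Col4a1 (0.043; 0.045), LanB2 (0.0060 and 0.0058), Ndg (0.048; 0.047), Mmp2 (2.5e-05; 0.0058), mew (0.020 in both), Dys (0.030 in both), Lar (0.0079; 0.0069), apolpp (0.057 in both), sls (0.065 in both), elav (0.014; 0.013), brp (0.040 in both) and the ratio of SPARC to Col4a1 (-0.030). In the 4 other matrix lists 11 genes were then lower, in both fits, against 20 before. With a sample left out, mys ranged from -0.018 to 0.019 and the ratio of wb to LanA changed sign, from -0.029 without mutant 2 to 0.040 without control 2. The cause of these changes was not tested.

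Same-numbered mutant and control libraries did not deviate together (correlations of 0.0225, -0.0276 and 0.0425), so the numbers were not taken as pairs. The counting error of wb, with 260 to 433 counts per library, is a coefficient of variation of 4.81% to 6.20%, to which any other spread adds. Reads carried no molecule tag, so this is counting error alone.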
